A study of Mus musculus with 3 samples.

Results

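The kynurenine pathway genes of multipotent progenitors (MPPs) were described in bone marrow of Mef2c-deficient and control mice, on 3 mouse Agilent arrays with 2 dyes. The members were the probes that the scanner files name Kmo, Kynu, Ido1 (under its older symbol Indo), Tdo2, Afmid, Haao, Qprt or Ahr. Of these 8 genes 7 had such a probe, out of 22214 genes tested in all. They were covered by 10 probes in 19 spots per array, and no probe carried the name Haao. Kmo was selected on its log2 ratio in these same arrays, so its values are a description with no test. The other members were chosen for their place in the pathway, with earlier results of these data known.

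The mutants were Mx1-cre+ Mef2cfl/fl mice, which carry floxed Mef2c and the Cre, and control mice were Mef2cfl/fl without Cre, so effects of Cre and of Mef2c loss cannot be told apart. Both groups received poly(I:C), an RNA analog that induces interferon and thereby Mx1-Cre, on 4 consecutive days, and marrow was taken 2 days after the last dose. For each sample 15000 cells without lineage markers (B220, Ter119, Gr-1, Mac-1, CD3) and with c-kit and Sca-1 were sorted, and their cDNA was amplified by PCR. Each array held 1 mutant sample in Cy3 and 1 control sample in Cy5, and no dye swap is labelled, so dye and genotype cannot be told apart. The labels used here give neither age nor the number of animals behind a sample, so p-values measure the spread between these samples, which may be technical.

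The kynurenine pathway breaks down most dietary tryptophan. Ido1 and Tdo2 open the indole ring, Afmid releases kynurenine, and Kmo, an enzyme of the outer mitochondrial membrane, adds a hydroxyl group that commits kynurenine to the branch leading through Kynu, Haao and Qprt to NAD. Side enzymes, the kynurenine aminotransferases, convert kynurenine to kynurenic acid instead, and kynurenine itself can activate Ahr, a ligand-dependent transcription factor. The full pathway is best known in liver, Ido1 is induced by interferon gamma, and Kmo is found in macrophages and microglia among other cells.

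The direction of array 2 is not settled. In the authors' deposited table of log2 ratios, the column of array 2 runs opposite to the scanner's ratio when compared with the other columns (correlation across spots with the scanner's Cy5 over Cy3 ratio of -0.947, 0.935 and -0.939 on arrays 1, 2 and 3), although the labels give the same dyes. With the direction of the labels, the log2 ratios of arrays 1 and 2 correlated at r = 0.306 across genes, those of arrays 1 and 3 at 0.128 and those of arrays 2 and 3 at 0.039. Turning array 2 makes the correlations with it negative, and genes are not independent replicates. Ratios below follow the labels, as log2 of Mef2c-deficient over control, and the values with array 2 turned are given where they matter. Control library 1 also stood apart, with a mean log2 signal of 13.5 over 6 neutrophil markers while control libraries 2 and 3 had 10.5 and 10.6 and mutant libraries 1 to 3 had 10.3, 10.7 and 9.17. Kit and Ly6a, the genes of c-kit and Sca-1, were well above background in all 6 libraries, but so were the lineage genes Itgam and Cd3e. Mef2c itself had log2 ratios of 0.08, 0.10 and -0.96 by its brighter probe (adjusted p = 0.741 by limma) and a mean of 0.52 by a dimmer one. Which part of Mef2c is floxed is not labelled, so whether these probes lie in it is unknown, and they do not check the genotype. The share of probes above background by the scanner's test ran from 73.4% to 80.4% over the 6 libraries, and 0 spots were saturated.

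The sequence before the start of Kmo is shown because Kmo is the member with the high ratio. RefSeq (GRCm38.p6) places these 250 bases at chr1:175631943-175632192 on the plus strand, 5′ to 3′, and capitals mark GAGGAA, the core of the motif of the myeloid and lymphoid factor PU.1.
Kmo: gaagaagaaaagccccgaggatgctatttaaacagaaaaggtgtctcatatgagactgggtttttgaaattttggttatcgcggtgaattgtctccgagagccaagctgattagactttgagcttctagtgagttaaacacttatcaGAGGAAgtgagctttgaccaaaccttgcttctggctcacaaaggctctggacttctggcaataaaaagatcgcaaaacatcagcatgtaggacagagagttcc
On both strands this window held 1 GAGGAA, which begins 103 bases before the start and which 23.3% of 32851 RefSeq windows of that length also hold. It held 0 copies of the MEF2 motif (in 0.508% of windows), of the interferon response motif (GAAA, any 2 bases and GAAA again, in 2.98%) and of the Ahr core GCGTG (28.2%). Windows were found for 5 of the 8 genes. Those of Tdo2 and Haao each held 1 Ahr core, and those of Afmid and Qprt held none of the 4 motifs. These matches describe letters and not binding.

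Kmo had the higher signal in the Mef2c-deficient sample on each array as labelled, as 15.2% of all genes did. Among the other 6 tested members 0 shared that pattern as labelled, a count near that share. The Kmo spot had raw mean intensities of 572, 317 and 1037 in the Cy3 channel of the mutants on arrays 1, 2 and 3, against 439, 156 and 555 in the Cy5 channel of the controls. Across all probes the Cy5 channel was the brighter (medians of 386, 380 and 394 in Cy3 of the mutants and 807, 843 and 883 in Cy5 of the controls), so Kmo ran against the trend of each array. After normalization its log2 signal was 9.77, 8.89 and 10.55 in the mutants and 8.32, 6.84 and 8.55 in the controls. Both libraries of array 2 were low and both of array 3 were high, yet the lowest mutant lay above the highest control, as in 7.21% of all genes as labelled.

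As log2 ratios, Kmo gave 1.45, 2.06 and 1.99 on arrays 1 to 3. The mean was 1.83 ± 0.33 (SD, n = 3), or 3.56-fold. Among genes measured on each array, 637, 51 and 44 had a larger ratio on arrays 1, 2 and 3, and 11 of 22214 had a larger mean. Kmo itself included, 0.054% of genes reached its mean. A ratio above 1 on all 3 arrays was seen for 0.113% of genes. These values chose the gene and support nothing further. Kmo is represented by 1 probe in 1 spot, which the files place on chromosome 1 at 175626352 to 175626411 (with no genome build stated), so no other probe bears on it. In the authors' deposited table its ratios were 1.51, -2.21 and 2.05, and with array 2 turned the mean was 0.46 ± 2.20 (SD, n = 3), the groups overlapped and 1558 genes had a larger mean.

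**Figure D1:**
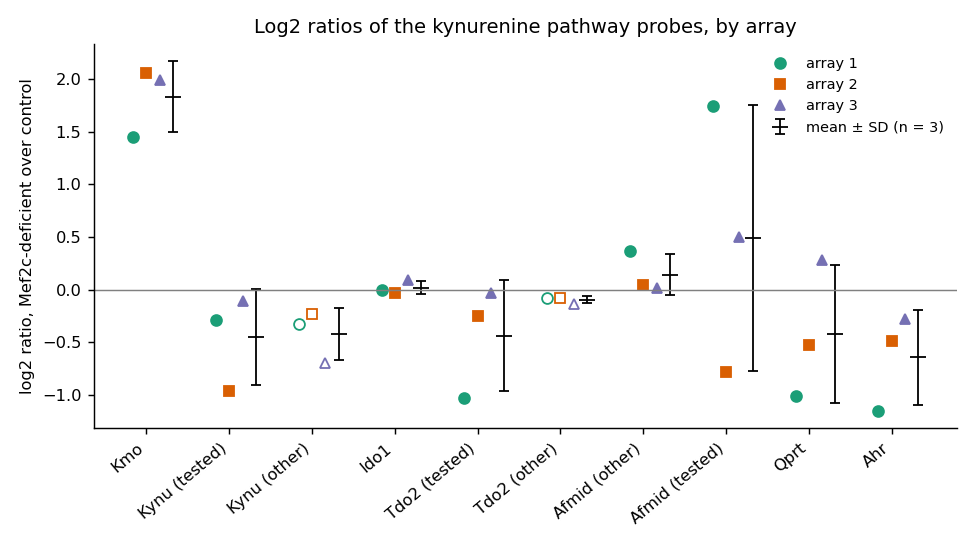
Log2 ratio (Mef2c-deficient over control) of each member probe on each of the 3 arrays, with the mean and SD in black. Open symbols mark probes that were not kept because they were too dim. The Kmo points lie at 1.45 to 2.06, and every other probe has at least 1 array below 0.5.

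Markers of macrophages, a cell type known for Kmo, were set beside it. Their mean log2 signal over 7 tested genes of 9 was 10.3, 9.97 and 10.3 in the mutants and 9.63, 9.68 and 9.88 in the controls. The groups thus did not overlap as labelled, as in 7.21% of single genes, but they overlapped with array 2 turned. Of the 7 genes 6 had a mean ratio above 0 (median 0.25, against -0.04 over all genes), with 0 at an adjusted p under 0.05 by limma. C1qc, whose mean is that median, was well above background in 2 mutants and 1 control. It was thus kept only through the mutants, which favours a ratio above 0. For this reason C1qc adds no support to the count, the median or the mean signal. The macrophage markers Mrc1 and Mertk had probes too dim to be kept. Fcgr1, a receptor for IgG on macrophages and monocytes, had log2 ratios of 1.25, 0.89 and 1.26 (adjusted p = 0.461 by limma). Itgam, which encodes the Mac-1 chain used in the sort, had -1.28, -1.05 and -0.83 (adjusted p = 0.461 by limma). Turning array 2 gave means of 0.54 for Fcgr1 and -0.35 for Itgam. The part of such cells in the Kmo ratio was not tested, and in bulk samples a change in the number of cells and a change in RNA per cell cannot be told apart.

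None of the 6 other tested members had a ratio above 0 on all 3 arrays as labelled, where 15.2% of all genes did. With array 2 turned 1 (Afmid) did, where 10.7% of genes did. In a set of 6, counts of 0 and 1 are near those shares. By limma 0 of the 6 members had an adjusted p under 0.05 (0% of all genes), with adjusted p from 0.486 to 0.974, and 1 had an unadjusted p under 0.05, where 10.1% of all 22214 genes did. Of those genes 1069 (4.81% of all) were higher and 1182 (5.32%) lower. With median centring in place of loess the split was 551 higher and 2321 lower, and that setting put the median of all genes at -0.18. The median of the 6 members' mean log2 ratios was -0.43, against -0.04 over all genes, with -0.65 on array 1, -0.51 on array 2 and 0.03 on array 3. Leaving out array 1 gave a median of -0.14. With array 2 turned it was -0.015.

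**Figure D2:**
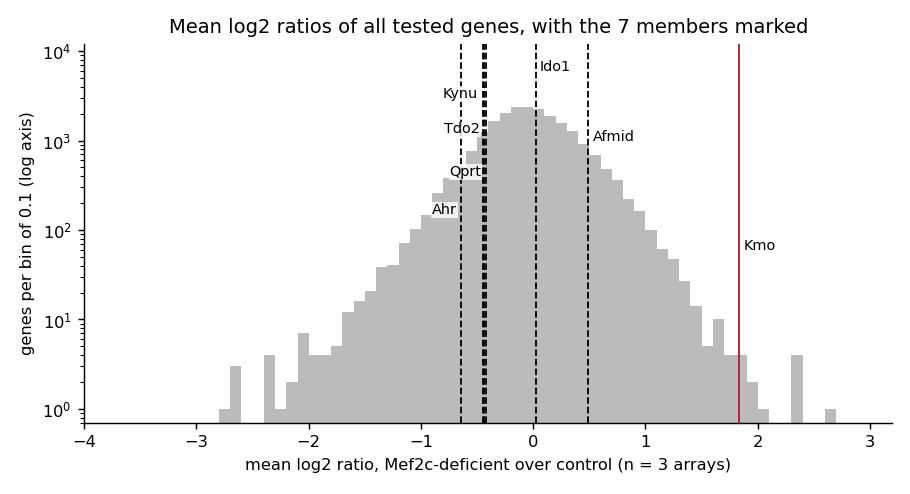
Histogram of the mean log2 ratio (Mef2c-deficient over control, 3 arrays) of all 22214 tested genes on a log count axis, with the 7 members as vertical lines. Kmo at 1.83 lies in the upper tail, and the other 6 lie between -0.64 and 0.49 in the body of the distribution.

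The enzymes that open the tryptophan ring had mean log2 ratios near or below 0. Ido1 had a log2 signal of 7.73, 7.79 and 7.76 in the mutants and 7.73, 7.82 and 7.67 in the controls. The groups overlapped, and these 6 values were the closest together of any member's. Its mean log2 ratio was 0.02 ± 0.06 (SD, n = 3; 95% interval by limma -0.48 to 0.52), and the sign changed with the processing. Tdo2 had 8.55, 8.77 and 8.82 in the mutants and 9.58, 9.02 and 8.85 in the controls. The mutants were lower without overlap, as in 11.8% of all genes, but the ratios of -1.03, -0.25 and -0.03 rested mainly on array 1. Its mean was -0.44 ± 0.52 (SD, n = 3; adjusted p = 0.567 by limma), and a dimmer probe, not well above background in any library, had a mean of -0.10 and was not kept.

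Afmid, which removes the formyl group to yield kynurenine, was the least even member. Its tested probe had a log2 signal of 10.9, 10.2 and 11.1 in the mutants and 9.18, 11.0 and 10.5 in the controls. The ratios of 1.74, -0.78 and 0.50 thus went both ways, with a mean of 0.49 ± 1.26 (SD, n = 3; adjusted p = 0.70 by limma). Without array 1 the mean was -0.14. When array 2 was turned, the tested probe was above 0 on all 3 arrays, as 10.7% of genes then were. Its mean was then 1.01 ± 0.65 (SD, n = 3), with no overlap of the groups and no member at an adjusted p under 0.05 by limma. The second Afmid probe had ratios of 0.37, 0.04 and 0.02, so the probes disagreed in size on array 1 and in sign on array 2.

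Kynu, which cleaves kynurenine and 3-hydroxykynurenine, is the step after Kmo on the NAD branch. Its tested probe was not well above background in any mutant and was so in all 3 controls, with a log2 signal of 6.73, 6.82 and 7.10 in the mutants and 7.02, 7.78 and 7.21 in the controls. From the means as labelled, Kynu was at least 1.28-fold lower in the mutants (adjusted p = 0.546 by limma). This bound sets the controls' mean signal against the lowest signal well above background in each mutant channel, or the probe's own where higher, and is open to dye bias. It does not hold on each array. The probe was kept only through the controls, so neither the bound nor the p supports a change. The measured ratios were -0.28, -0.97 and -0.10, with a mean of -0.45 ± 0.45 (SD, n = 3), and was 0.19 with array 2 turned and -1.44 with the scanner's processed signals. A further Kynu probe was well above background in no library.

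Qprt, which turns quinolinic acid into a precursor of NAD, had a log2 signal of 10.6, 11.3 and 11.5 in the mutants and 11.6, 11.8 and 11.2 in the controls. Its ratios of -1.01, -0.53 and 0.28 changed sign between arrays, with a mean of -0.42 ± 0.65 (SD, n = 3; adjusted p = 0.608 by limma). For Haao, the dioxygenase between Kynu and Qprt, 1 probe is described as Haao while its gene name is a transcript identifier, so it falls outside the choice of members. That probe had ratios of -1.85, 0.10 and -0.62, with a mean of -0.79 ± 0.99.

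Ahr, the receptor that kynurenine can activate, was the member with an unadjusted p under 0.05 (0.0452 by limma), at an adjusted p of 0.486. Its log2 signal was 8.36, 8.86 and 8.92 in the mutants and 9.5, 9.36 and 9.20 in the controls. All mutants lay below all controls as labelled, as in 11.8% of all genes, and the gap was widest on array 1. With array 2 turned the groups overlapped. The ratios were -1.15, -0.49 and -0.28, with a mean of -0.64 ± 0.45 (SD, n = 3; 95% interval by limma -1.26 to -0.02). Ahr was printed in 10 spots per array, so the error of spotting can be set beside the difference between arrays. Over the 10, 9 and 9 spots free of outlier flags, the ratio had an SD of 0.10, 0.06 and 0.13 on arrays 1, 2 and 3, and each of these spots was below 0. The spread between arrays was thus 0.45, above that within any array. Without array 1 the mean was -0.39 at an unadjusted p of 0.207, without array 2 it was -0.71 at 0.088, and with array 2 turned it was -0.31 at 0.419.

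**Figure D3:**
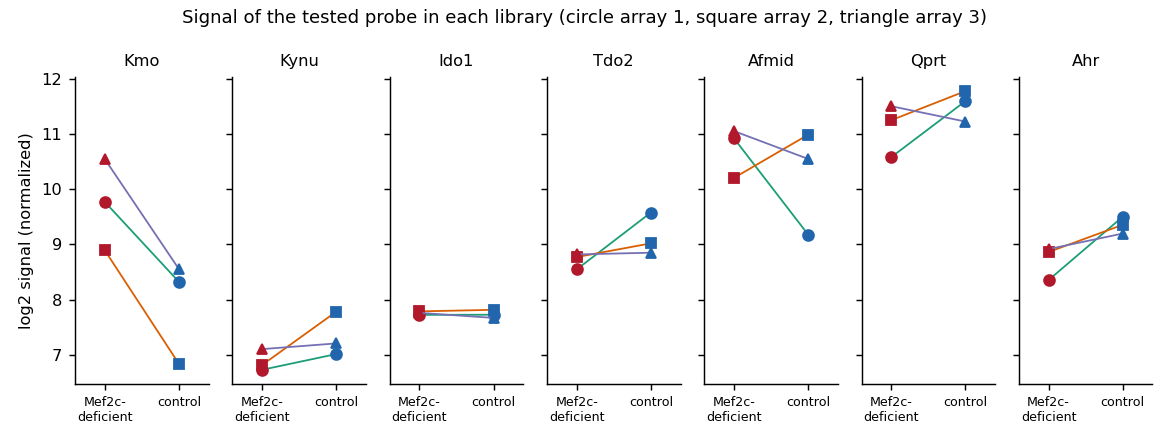
Normalized log2 signal of each member's tested probe in the 6 libraries, Mef2c-deficient left (red) and control right (blue), with a line joining the libraries of an array. All lines fall to the right for Kmo and rise to the right for Kynu, Tdo2 and Ahr, whereas those of Afmid and Qprt cross.

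Below 0 on all 3 arrays were 3 of the 6 members (Kynu, Tdo2 and Ahr), where 20.3% of all genes were, and 0 were above 0 on all 3, where 15.2% were. Kynu was kept only through its controls, which favours a ratio below 0, so it adds no support to this count. The same sign on all 3 arrays, in either direction, was seen in 35.5% of genes. With array 2 turned, 0 of the 6 members were below 0 on all 3 arrays, where 9.46% of genes were. Within an array, the ratio of Kmo exceeded that of Ahr by 2.59, 2.55 and 2.27 and that of Kynu by 1.73, 3.02 and 2.10 on arrays 1, 2 and 3. Afmid was the exception, since its ratio exceeded Kmo's on array 1 (a difference of -0.29, Kmo minus Afmid). The 95% intervals by limma ran from -1.07 to 0.17 for Kynu, from -1.10 to 0.22 for Tdo2, from -1.16 to 0.31 for Qprt and from -0.67 to 1.65 for Afmid.

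The wider pathway was read through 6 lists of 48 genes, of which 39 were tested, 8 had probes too dim to be kept and 1 (Wars1) had no probe found under its name. By limma 0 of the 39 had an adjusted p under 0.05, and 4 had an unadjusted p under 0.05 (3 above 0 and 1 below), which is 10.3% of the lists against 10.1% of all genes. Their median log2 ratio was 0.03, with 22 above 0 and 17 below. With array 2 turned 1 of the 39 (Slc36a4) had an unadjusted p under 0.05, or 2.56% against 2.90% of all genes. In both directions of array 2 the share was near that of all genes.

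Of the side enzymes, Kyat3 and Got2 had positive ratios on every array as labelled. Kyat3, a kynurenine aminotransferase, had a log2 signal of 12.1, 11.1 and 11.8 in the mutants and 10.7, 10.2 and 10.7 in the controls. Its ratios were 1.43, 0.87 and 1.14, with a mean of 1.15 ± 0.28 (SD, n = 3; adjusted p = 0.461 by limma). Got2, the mitochondrial aspartate aminotransferase that also accepts kynurenine, had 14.4, 14.1 and 14.3 in the mutants and 13.4, 13.5 and 13.6 in the controls, with a mean ratio of 0.75 ± 0.19 (SD, n = 3; adjusted p = 0.463 by limma). In both genes the mutants lay above the controls without overlap as labelled, as in 7.21% of all genes. The groups overlapped with array 2 turned, at means of 0.57 ± 1.25 for Kyat3 and 0.36 ± 0.83 for Got2. The other tested genes of the list were Kyat1, a second aminotransferase, at 0.02, Acmsd, which diverts the pathway away from NAD, at -0.07, and Ido2, a relative of Ido1, at -0.56 (means of 3 arrays). The median of these 5 was 0.02, and Aadat was too dim to be kept.

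Genes of NAD synthesis had a median log2 ratio of -0.03 over 8 of 9, with 4 above 0 and 4 below. Nmrk2, a nicotinamide riboside kinase, had -0.82, -0.34 and -0.61 (adjusted p = 0.475 by limma), and it was the list's 1 gene at an unadjusted p under 0.05. Its mean was -0.36 with array 2 turned. Among genes of tryptophan supply and other uses 0 of 8 tested passed at an unadjusted p under 0.05, with a median of -0.0071. The largest were Slc7a5, the main chain of an amino acid transporter that imports tryptophan, at 0.50 ± 0.30, and Ddc, an aromatic amino acid decarboxylase, at -0.51 ± 0.34 (SD, n = 3).

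Partners and targets of Ahr gave no common direction, with a median of -0.0080 over 7 tested of 12, and 0 at an unadjusted p under 0.05. The classical targets Cyp1a1, Cyp1b1 and Ahrr had probes too dim to be kept, as did Arnt2 and Aldh3a1. Of the rest, the chaperone gene Ptges3 was at 0.29 ± 0.29 and Cyp1a2 at -0.45 ± 0.67 (SD, n = 3). Gpr35, a receptor for kynurenic acid, had ratios of -1.70, 0.63 and 1.86, negative on array 1 and positive on arrays 2 and 3.

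Of interferon gamma signalling all 10 genes were tested, with a median log2 ratio of 0.12. Ifngr1, a chain of the interferon gamma receptor, had 0.32, 0.52 and 0.91 (adjusted p = 0.483 by limma) and was the list's 1 gene at an unadjusted p under 0.05. Its mean was 0.23 with array 2 turned. Both groups had received poly(I:C), so neither shows the state of these genes without it.

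**Figure D4:**
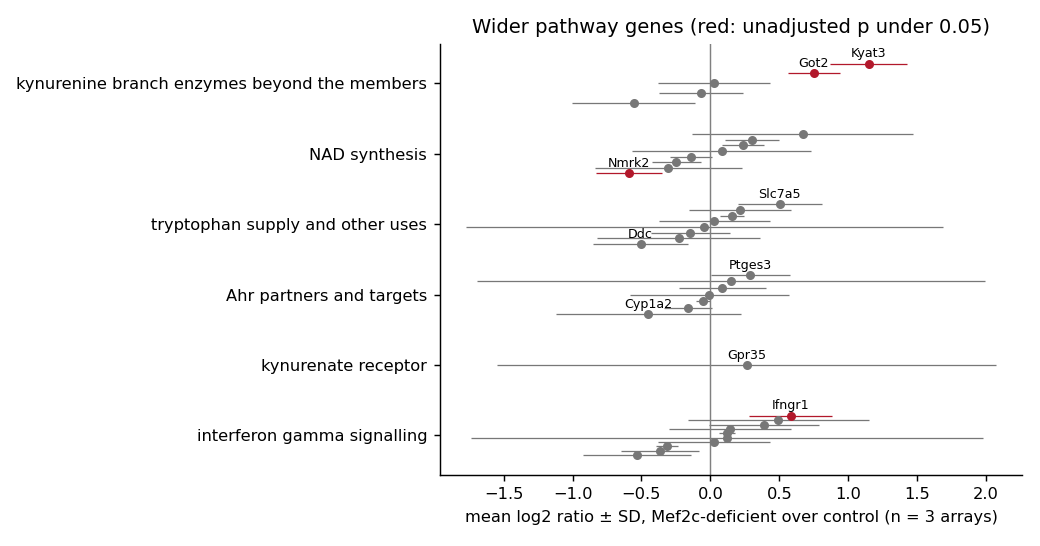
Mean log2 ratio (Mef2c-deficient over control) ± SD over 3 arrays of the 39 tested genes in the 6 wider pathway lists. Red points have an unadjusted p under 0.05, and the 4 of them are Kyat3 at 1.15, Got2 at 0.75, Ifngr1 at 0.58 and Nmrk2 at -0.59.

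The genes whose log2 signal followed that of Kmo most closely over the 6 libraries were, among 19498 compared, Cyba (Pearson's r = 0.991), which encodes a subunit of the phagocyte NADPH oxidase, Erp29 (0.988), of an endoplasmic reticulum chaperone, and Mrps24 (0.987), of the mitochondrial ribosome, with 2 sequences that carry only identifiers. The 6 libraries share 3 arrays and this is a ranking, not a test. Their own log2 ratios were smaller than Kmo's, with means of 0.54 for Cyba, 0.42 for Erp29 and 0.53 for Mrps24.

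**Figure D5:**
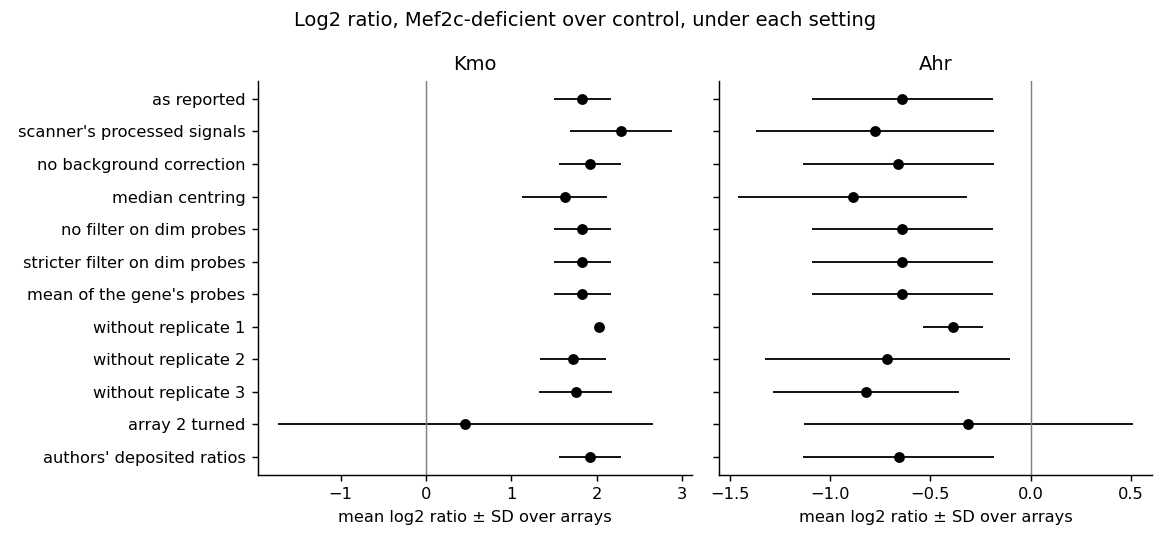
Mean log2 ratio (Mef2c-deficient over control) ± SD over arrays of Kmo and Ahr as reported and under 11 other settings. Kmo stays between 1.62 and 2.29 except with array 2 turned, at 0.46, and Ahr is below 0 throughout, from -0.89 to -0.31. Ahr has 1 probe, so the filters on dim probes and the mean of a gene's probes left its ratio as reported. Its ratios as labelled are all below 0, so leaving out an array could not turn the sign. For the authors' deposited ratios, array 2 was set to the direction of the labels, opposite to the deposited column.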

How the data were processed

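Per the file headers, the 3 arrays lay on 1 slide and were read with Agilent Feature Extraction 9.5.1.1. Per spot, the deposited files give linear intensity in each dye and the scanner's log10 ratio (red over green). The authors' deposited table holds log2 ratios, made with limma per the submitters' processing notes, with no normalization stated.

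From mean foreground and median background, limma 3.58.1 (R 4.3.3) applied normexp (offset 50) and loess. Control spots had weight 0 and were left out, as were spots with outlier flags (455, 480 and 374). Levels of single libraries were also normalized by Aquantile. Of 41174 probes, 32898 passed the scanner's test against background on 2 or more arrays in 1 dye, and the brightest stood for each of 22214 genes. RefSeq (GRCm38.p6) gave current symbols to 22951 probes through accessions, to 6659 through symbols and to 3109 through synonyms. A further 8455 probes kept their given name, so the genes counted include sequences that carry only an identifier.

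Ratios were tested against 0 over all genes by lmFit and eBayes with Benjamini-Hochberg adjustment, checked on simulated data. The number of arrays limits the precision. Members and lists were chosen with earlier results of these data known. Named were all members, list genes at an unadjusted p under 0.05 (otherwise the 2 largest), the largest of each marker list and the 5 genes most like Kmo. Other genes were named after their values were seen. Alternatives are given in the closing section.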

Additional observations from a re-analysis of the deposited data

How the results depend on the processing

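The mean log2 ratio of Kmo was above 0 under all 11 alternatives. It was 2.29 with the scanner's processed signals, 0.46 with array 2 turned and from 1.72 to 2.02 when an array was left out. This count is no check, since Kmo was chosen for its ratio. Kmo has 1 probe, so the filters on dim probes and the mean of a gene's probes left it at 1.83. Its ratios as labelled are all above 0, so leaving out an array could not turn the sign. The authors' deposited ratios, with array 2 set to the direction of the labels, gave 1.92. The median of the 6 other members was -0.015 with array 2 turned and ran from -0.63 to -0.14 when an array was left out. Genes at an unadjusted p under 0.05 numbered 644 with array 2 turned, against 2251, and 1297 to 2731 when an array was left out (1297 without array 1), and members other than Kmo numbered 0 to 2, with 0 without array 1, Afmid in place of Ahr without array 2, and both Ahr and Qprt without array 3. With the scanner's processed signals the member at that level was Kynu, and with array 2 turned Afmid. No setting gave an adjusted p under 0.05 by limma for any gene. Signs turned for Ido1 with the processed signals (-0.0053) and median centring (-0.11) and, when an array was left out, for Ido1 (-0.015 to 0.044), Afmid (-0.14 to 1.12), Gpr35 (-0.54 to 1.24) and Ms4a2 (-0.17 to 0.95). With array 2 turned they turned for Kynu (0.19), Gpr35 (-0.16), Hba-a1 (0.023), Klrd1 (0.23), Ptges3 (-0.11) and Slamf1 (-0.36). The cause was not tested beyond what each alternative changes by construction. A block for the slide was not run, since 1 slide held all arrays. Each ratio pairs the 2 samples of an array, so the test as reported is a paired one. Without an array, 2 ratios remain. Dim probes limit Kynu, Aadat and the Ahr targets, where a change could go undetected.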

Other observations

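Markers of other cell types that the sort could hold were read as lists, with no test of a list. Neutrophil markers had a median log2 ratio of -1.63 over 6 tested of 7, with -3.67, 0.16 and -1.37 on arrays 1, 2 and 3, and the largest was Ngp, of neutrophil granules, at -4.33, 0.57 and -2.09. As labelled, T cell markers all had means below 0 (6 of 6, median -0.33, against -0.04 over all genes). With that median over all genes, a mean below 0 was also the more common sign among all genes. Cd3g, a chain of the T cell receptor complex, was at -0.77 ± 0.20 (SD, n = 3). NK cell markers were all below 0 too (4 of 4, median -0.80), with the receptor gene Klrd1 at -1.09 ± 0.82. With array 2 turned, Cd3e, Cd3d and Lck had means of 0.04, 0.45 and 0.53, while Cd3g, Cd4 and Cd8a stayed below 0. Among NK cell markers, Klrb1c, Prf1 and Klrd1 then had 0.30, 0.04 and 0.23, and Ncr1 stayed below 0. Dendritic cell markers had a median of -0.40 over 7 of 8, with 5 means below 0 and 2 above (Itgax at 0.70 and Xcr1 at 0.22). Clec9a, at a mean of -0.90, was well above background in 1 mutant and 2 controls. It was kept only through the controls, which favours a ratio below 0, so it adds no support to that median. Cd74, the invariant chain of MHC class II, was at -2.16, -0.68 and -0.44. Without array 1 the mean of Cd74 was -0.56. For erythroid markers the median was -0.54 over 4, with the hemoglobin gene Hba-a1 at -1.68 ± 1.03.

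The remaining lists had medians nearer to 0. The median log2 ratio was -0.12 for 5 B cell markers, with the receptor chain gene Cd79b at 0.48 ± 0.58 (SD, n = 3), 0.13 for 4 mast cell and basophil markers, with the IgE receptor gene Ms4a2 at 0.56 ± 1.26, and 0.00046 for 4 tested monocyte markers of 5. Among 6 stem and progenitor markers it was 0.03, with 2 above and 1 below 0 at an unadjusted p under 0.05. The 1 below 0 was Flt3, a cytokine receptor of multipotent progenitors, at -1.02, -1.26 and -1.19 as labelled and at a mean of -0.32 with array 2 turned. Ly6a, the gene of the sort marker Sca-1, was at 0.93, 0.51 and 1.02 as labelled and at a mean of 0.48 with array 2 turned, and Slamf1, a marker of stem cells, was at 1.0, 2.28 and 0.20. Of hepatocyte genes, whose tissue runs the full kynurenine pathway, 2 of 3 were tested and Alb was too dim to be kept, while the transport protein gene Ttr was at -0.53 ± 0.22. By limma 0 of these genes had an adjusted p under 0.05.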
